A study of Mus musculus with 4 samples.

Results

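Fatty acid oxidation genes are described here across inflamed and nonarthritic mouse synovium. The list holds 33 genes that activate fatty acids, carry them into mitochondria, break them down there or control that breakdown. Members were taken by gene symbol. Of the 33, 29 were measured, among 22180 genes in all. The other 4 were Acsl1, Acsl3, Cpt1b and Ucp2. Acsl3 and Cpt1b lie under probe sets that also carry symbols of neighbouring genes, so those 2 were left out. Acsl1 and Ucp2 were not analysed here.

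A fatty acid must be joined to coenzyme A before a cell can burn it. Long chains then cross the mitochondrial membranes as carnitine esters, and a repeating cycle of oxidation, hydration, oxidation and thiolysis cuts off acetyl-CoA. PPAR alpha and the PGC-1 coactivators drive the genes of this pathway in tissues that depend on it, such as heart, skeletal muscle, liver and brown fat. Skeletal muscle and fat lie next to the joint lining, and macrophages also oxidise fatty acids.

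The arthritic group was 2 pools of synovium, each from 10 male C57BL/6J mice labelled day 10 and peak inflammation. These mice had received K/BxN serum by intraperitoneal injection of 150 microlitres on days 0, 2 and 7, starting at 12 weeks of age. The nonarthritic group was 2 pools of 3 such mice, labelled day 0, which received phosphate buffered saline at the same times according to the protocol. Their labels also name K/BxN as the serum source strain, which conflicts with the saline, and it is unclear on which day they were sampled. Each pool was hybridised to 1 Affymetrix MoGene 2.0 ST array, so pool size and labelled day cannot be told apart from arthritis. Tissue came from the region of the tibiotalar (ankle) joint and was not sorted into cell types.

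The 4 arrays fell apart by group, with 79.1% of the variance between arrays on the first principal component. All values are log2 signals from RMA (robust multi-array average). A gene was called higher or lower in arthritic synovium when its limma p, adjusted over all 22180 genes, was under 0.05. By that rule 8.72% of all genes were called higher and 6.62% lower. The synovial lubricin gene Prg4 read 13.27 and 13.52 in arthritic pools 1 and 2, against 13.66 and 13.66 in nonarthritic pools 1 and 2, so the labelled tissue's defining marker was high on every array. Muscle and fat markers differed strongly between the groups, and most had means above the range of olfactory receptor genes in both. Of 25 skeletal muscle markers, 0 were called higher and 22 lower, led by Trdn (log2 fold change -4.37, or at least 15.9-fold lower against the signal of olfactory receptor genes, in whose range it lay in arthritic synovium), Myoz1 (-3.82) and Neb (-3.81), all parts of the contractile or calcium release machinery. Of 14 measured adipocyte markers, 0 were called higher and 12 lower, led by the lipid droplet gene Cidec (-3.40), the adipokine Retn (-3.31) and the droplet coat gene Plin1 (-2.94).

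The oxidation genes did not shift as a block. Of the 29 measured members, 3 rose (Cpt1a, Slc25a20 and Acads) and 3 fell (Acadm, Ppargc1a and Pdk4). The share called was 10.3% in each direction, beside 8.72% higher and 6.62% lower among all genes tested, so the counts stood near the background. The log2 fold changes of the members ran from -1.61 to 0.65, with a median of -0.12 beside 0.01 for all genes tested. In bulk tissue, fewer cells of a type and less RNA per cell cannot be told apart.

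For most members the intervals from limma, which draws each gene's variance toward that of all genes, limited the size of any change in signal. For the 23 that were not called, log2 fold changes ran from -0.56 to 0.64, and the 95% interval from limma lay within 1 log2 unit of 0 on both sides for 21 of them. The exceptions were Acsl4, with an upper bound of 1.09, and Acot2, with a lower bound of -1.20. Those 21 include Ppara, in the range of olfactory receptor genes in both groups, and Ucp3, in that range in arthritic synovium. For these the interval covers the signal and does not limit a change in RNA. The groups did not overlap in 24 of the 29 members, beside 56.4% of all genes. Both arthritic pools lay above both nonarthritic pools in 11 members, beside 30.2% of all genes, and below them in 13, beside 26.1%. The median distance between the pools of a group was 0.16 for arthritic and 0.11 for nonarthritic synovium over the members, beside 0.17 and 0.18 over all genes. At the edge of the threshold stood Acads, with an adjusted p of 0.044, and Acsl4, with an adjusted p of 0.0651.

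The counts depended on every pool. With arthritic pool 1, arthritic pool 2, nonarthritic pool 1 or nonarthritic pool 2 left out, 0, 0, 0 and 0 members were called higher and 2, 0, 0 and 0 lower. Calls over all genes fell in the same fits, to 232, 47, 637 and 144 higher and 418, 105, 584 and 209 lower. The median over the members turned to 0.06 without arthritic pool 2.

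**Figure D1:**
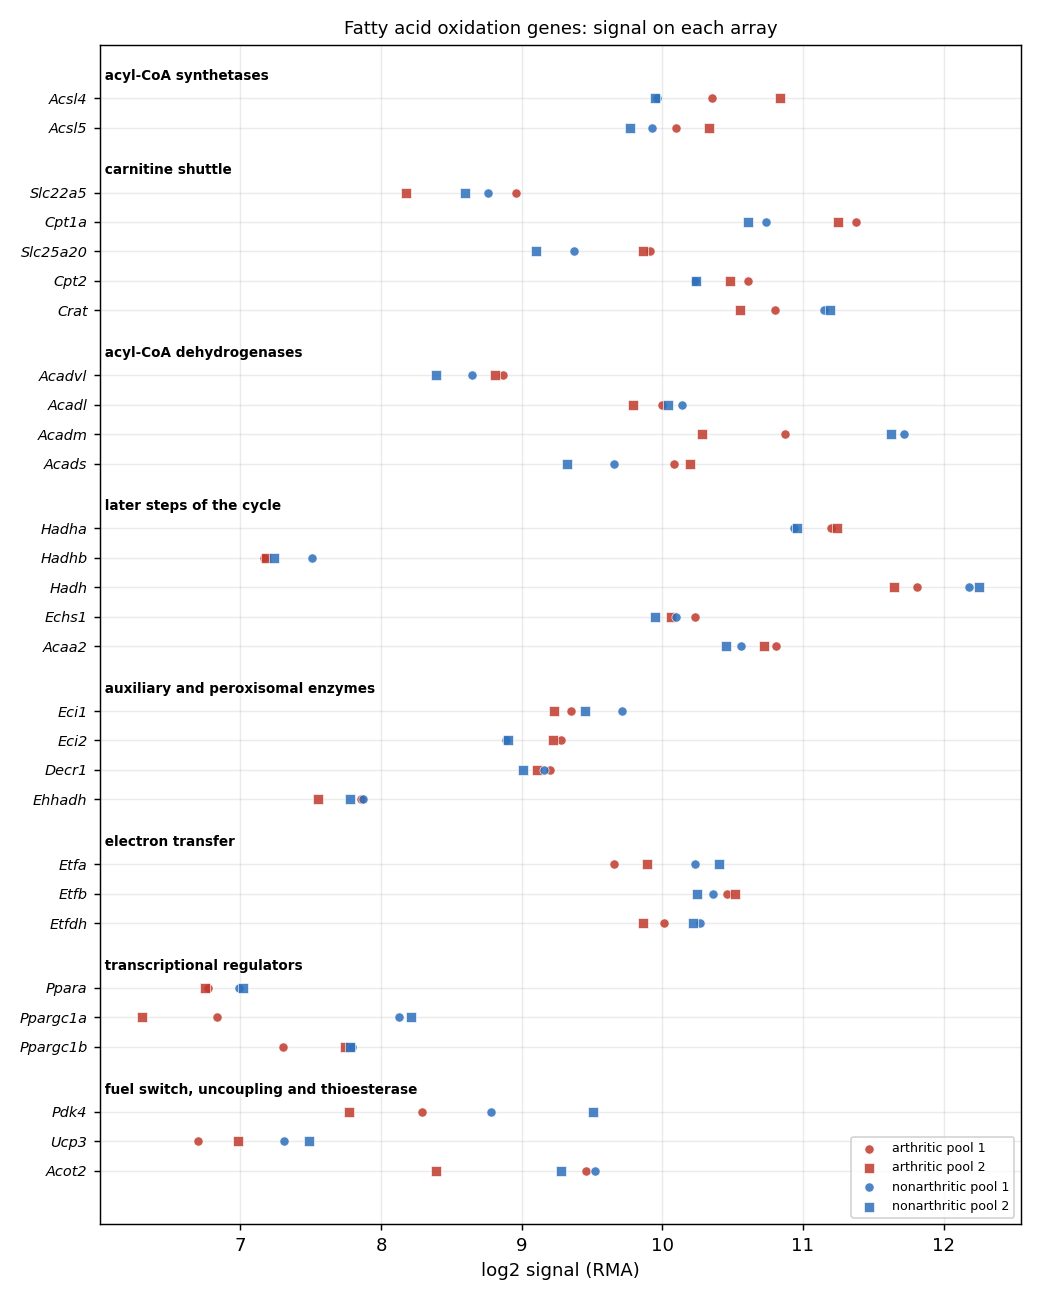
Log2 signal (horizontal axis) of the 29 measured fatty acid oxidation genes, 1 row per gene, ordered by role. Red points are the 2 arthritic pools and blue points the 2 nonarthritic pools; Ppargc1a, Acadm and Pdk4 lie lower in both arthritic pools, and Cpt1a, Slc25a20 and Acads higher.

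**Figure D2:**
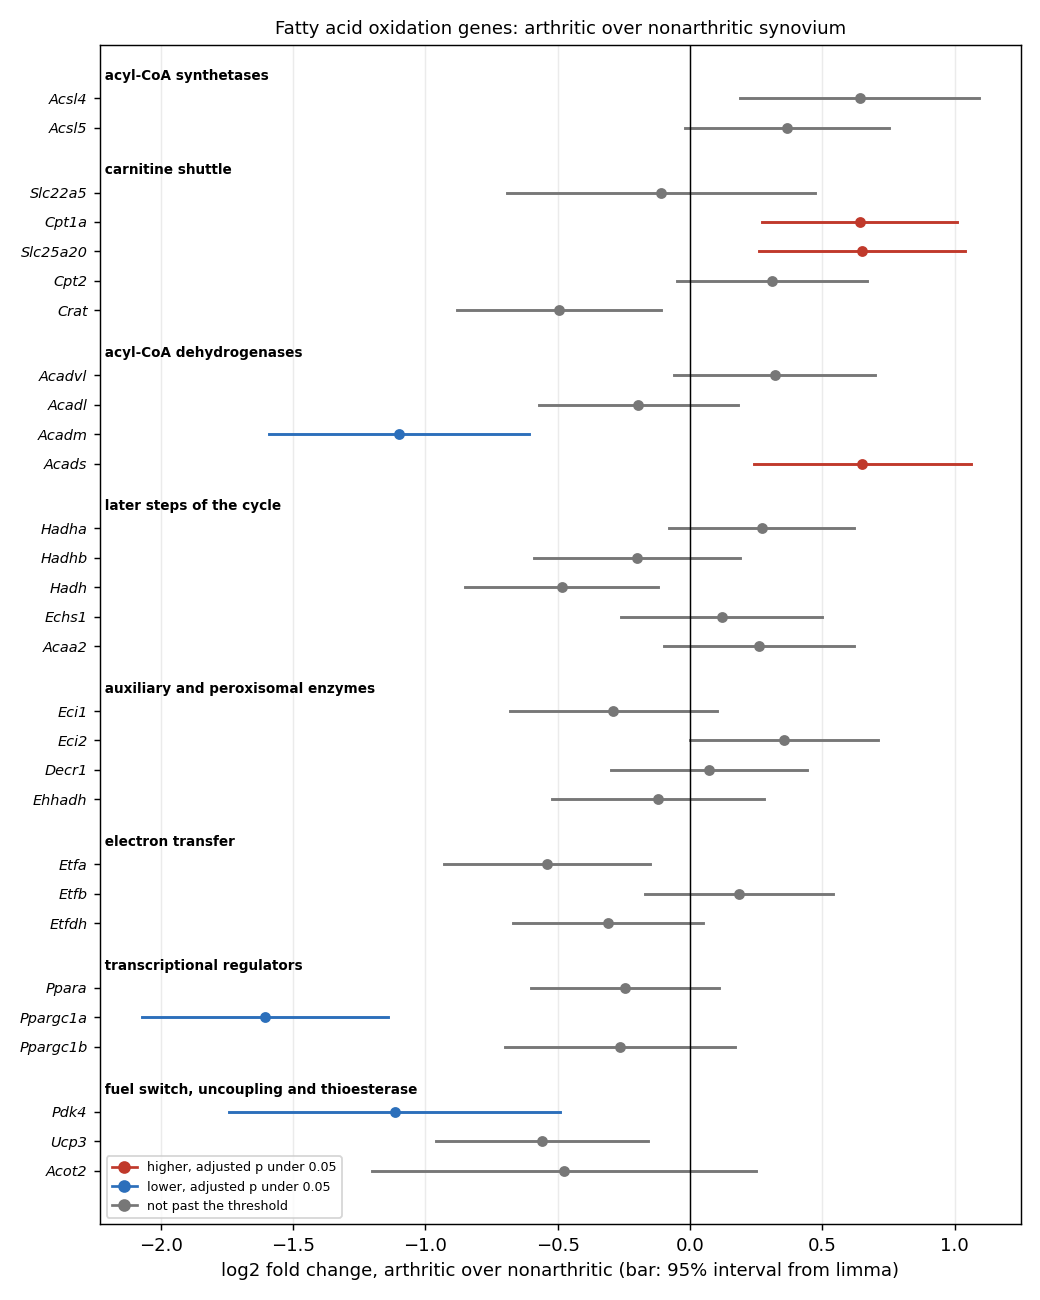
Log2 fold change of arthritic over nonarthritic synovium for the same genes, with the 95% interval from limma as a bar. Red marks the 3 genes called higher, blue the 3 called lower and grey the 23 not past the threshold; the fold changes run from -1.61 to 0.65.

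Neither of the 2 measured acyl-CoA synthetases of the list, which attach coenzyme A to long-chain fatty acids, was called. Acsl4, the form that prefers arachidonic acid, read 10.35 and 10.84 in arthritic pools 1 and 2, against 9.96 and 9.95 in nonarthritic pools 1 and 2. Both arthritic pools lay above the nonarthritic ones, but they stood farther apart than the nonarthritic pools did (log2 fold change 0.64 ± 0.20 SE, adjusted p = 0.0651). Over the alternatives its adjusted p ran from 0.03 to 0.309, and it passed the threshold with array medians centred (0.03), with dim genes left out (0.044) and with an intensity trend and robust prior (0.0323). Acsl5, found at mitochondrial and endoplasmic reticulum membranes, had a log2 fold change of 0.37 and also did not overlap between groups. Acsl6, a further long-chain synthetase from the list of supply genes, was at -0.63 without a call.

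The carnitine shuttle held 2 of the 3 rises. Cpt1a, the liver-type carnitine palmitoyltransferase that sets the pace of long-chain entry and is held back by malonyl-CoA, read 11.38 and 11.25 in arthritic pools 1 and 2, against 10.74 and 10.61 in nonarthritic pools 1 and 2. The groups did not overlap, and the rise was 1.56-fold (adjusted p = 0.0317, log2 fold change 0.64 ± 0.16 SE). Slc25a20, the carrier that swaps acylcarnitine for carnitine across the inner membrane, read 9.91 and 9.86 in arthritic pools, against 9.37 and 9.10 in nonarthritic pools. It too had no overlap and rose 1.57-fold (0.65 ± 0.17 SE, adjusted p = 0.0358). Without any 1 pool neither call held, with adjusted p-values of 0.0975 to 0.203 for Cpt1a and 0.0759 to 0.224 for Slc25a20.

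The rest of the shuttle was not called. Cpt2, which rebuilds acyl-CoA inside the mitochondrion, had a log2 fold change of 0.31 and the plasma membrane carnitine importer Slc22a5 -0.11. Slc22a5 overlapped between groups, at 8.96 and 8.18 in arthritic pools 1 and 2 and 8.76 and 8.60 in nonarthritic pools 1 and 2. Crat, which moves short acyl groups such as acetyl between carnitine and coenzyme A, lay lower in both arthritic pools (-0.50, adjusted p = 0.0857). It passed the threshold with quantile normalization again (0.041) and with an intensity trend and robust prior (0.0345). Its adjusted p was 0.204 with array medians centred and 0.392 with the mean of probe sets. A further probe set of Crat gave 0.03, and the mean of both probe sets gave -0.24.

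To show the DNA around start sites of members named in these results, sequence was taken from RefSeq (build GRCm38.p6). Each window ran from 250 bases before an annotated start to 50 after it. Of the 29 measured members 25 had such a window in the table used. Shown are Cpt1a and Slc25a20, which rose, Ppargc1a, which fell, and Ucp3, which holds a match with 2 mismatches to the repeat linked to PPARs. Each is written in the direction of its gene: Cpt1a chr19:3323051-3323350 (plus strand), Slc25a20 chr9:108661886-108662185 (plus), Ppargc1a chr5:51567676-51567975 (minus) and Ucp3 chr7:100472741-100473040 (plus). Capitals mark matches to the PPAR-type direct repeat or to its core AGGTCA on either strand.
Cpt1a: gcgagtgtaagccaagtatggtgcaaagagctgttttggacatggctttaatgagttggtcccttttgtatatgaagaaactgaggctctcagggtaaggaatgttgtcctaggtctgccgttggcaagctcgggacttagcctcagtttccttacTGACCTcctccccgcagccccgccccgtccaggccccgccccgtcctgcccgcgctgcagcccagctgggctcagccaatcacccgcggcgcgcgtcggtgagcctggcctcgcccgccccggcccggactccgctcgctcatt
Slc25a20: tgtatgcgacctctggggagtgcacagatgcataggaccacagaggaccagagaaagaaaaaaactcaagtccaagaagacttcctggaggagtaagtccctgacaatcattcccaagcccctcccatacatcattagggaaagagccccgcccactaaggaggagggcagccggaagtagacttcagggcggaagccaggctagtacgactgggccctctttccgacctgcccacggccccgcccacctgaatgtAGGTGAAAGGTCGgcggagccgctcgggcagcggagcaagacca
Ppargc1a: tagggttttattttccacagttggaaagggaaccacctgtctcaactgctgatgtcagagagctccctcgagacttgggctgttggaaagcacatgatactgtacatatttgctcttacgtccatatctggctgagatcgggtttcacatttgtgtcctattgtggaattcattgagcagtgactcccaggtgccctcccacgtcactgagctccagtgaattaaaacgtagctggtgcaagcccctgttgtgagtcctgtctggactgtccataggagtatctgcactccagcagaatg
Ucp3: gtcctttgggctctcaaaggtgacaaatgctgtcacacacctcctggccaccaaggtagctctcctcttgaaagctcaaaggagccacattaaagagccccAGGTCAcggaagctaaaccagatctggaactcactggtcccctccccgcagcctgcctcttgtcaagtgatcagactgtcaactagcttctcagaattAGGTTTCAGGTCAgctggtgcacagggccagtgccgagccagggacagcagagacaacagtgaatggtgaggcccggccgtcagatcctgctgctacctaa

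The direct repeat was searched as 2 copies of AGGTCA with 1 base between them, on both strands, with up to 2 mismatches. Such a match was found in the windows of 4 of the 25 members, Echs1, Etfa, Slc25a20 and Ucp3, and in 3.86% of 32851 promoter windows of the same length. In each of the 4 members the match had 2 mismatches, the most allowed. The single core AGGTCA, which can overlap the repeat, was in 5 of the 25, Acadm, Acadvl, Cpt1a, Echs1 and Ucp3, and in 16.3% of all windows. The element of estrogen-related receptors, TCAAGGTCA, and the cyclic AMP element, TGACGTCA, were in 0 of the 25, beside 0.423% and 1.79% of all windows. The 4 genes with such a match had log2 fold changes of 0.12 (Echs1), -0.54 (Etfa), 0.65 (Slc25a20) and -0.56 (Ucp3), so they lay on both sides of 0. The Ppargc1a window held none of the 4 motifs. It lies inside the annotated span of the gene and does not cover the upstream end of that span. All but the direct repeat were searched as exact letters, so copies with a mismatch were not counted. A match describes the letters and shows no binding.

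The acyl-CoA dehydrogenases, which take the first step of each cycle, did not move together. Acadm, the medium-chain enzyme, read 10.87 and 10.28 in arthritic pools 1 and 2, against 11.72 and 11.63 in nonarthritic pools 1 and 2. Both arthritic pools lay well below, and Acadm was 2.14-fold lower in arthritic synovium (adjusted p = 0.0122, log2 fold change -1.10 ± 0.21 SE). Acads, the short-chain enzyme, read 10.08 and 10.20 in arthritic pools, against 9.66 and 9.32 in nonarthritic pools. It rose 1.57-fold with no overlap (0.65 ± 0.18 SE, adjusted p = 0.044). Acadvl, the very-long-chain enzyme, had a log2 fold change of 0.32, and Acadl, the long-chain enzyme, -0.20, and neither was called. Acadm kept its call without arthritic pool 1 (adjusted p = 0.0466) and lost it without each other pool (0.116 to 0.158), and Acads lost its call without any 1 pool (0.0747 to 0.262).

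None of the 5 genes for the later steps was called, and their log2 fold changes ran from -0.49 to 0.27. Hadh, the dehydrogenase for shorter chains, lay farthest from 0 at 11.81 and 11.65 in arthritic pools 1 and 2, against 12.18 and 12.25 in nonarthritic pools 1 and 2. Its groups did not overlap (log2 fold change -0.49 ± 0.16 SE, adjusted p = 0.0806). The hydratase Echs1 was at 0.12 and the thiolase Acaa2 at 0.26. Over the alternatives that kept every pool, the adjusted p of Hadh ran from 0.0152 to 0.199. Hadh passed the threshold with quantile normalization again (0.0431) and with an intensity trend and robust prior (0.0152). With 1 pool left out, the log2 fold change of Hadh ran from -0.565 to -0.405.

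Hadha and Hadhb encode the alpha and beta subunits of the mitochondrial trifunctional protein, which carries out these steps for long chains. Their start sites lie back to back on chromosome 5, 273 bases apart, and the windows of both genes share 228 bases. Hadha read 11.20 and 11.24 in arthritic pools 1 and 2, against 10.94 and 10.96 in nonarthritic pools 1 and 2 (0.27 ± 0.15 SE, adjusted p = 0.294). Hadhb read 7.17 and 7.18 in arthritic pools, against 7.51 and 7.24 in nonarthritic pools (-0.20 ± 0.17 SE, adjusted p = 0.493). In nonarthritic pool 2 Hadhb lay under 7.36, the 95th percentile of olfactory receptor genes on that array. A signal so near that range limits what the Hadhb values can show. Neither subunit was called, and the 95% intervals were -0.08 to 0.62 for Hadha and -0.59 to 0.19 for Hadhb. The whole Hadhb window of 300 bases, chr5:30155003-30155302 on the plus strand, is shown because its first 228 bases are shared; it has no motif match.
Hadhb: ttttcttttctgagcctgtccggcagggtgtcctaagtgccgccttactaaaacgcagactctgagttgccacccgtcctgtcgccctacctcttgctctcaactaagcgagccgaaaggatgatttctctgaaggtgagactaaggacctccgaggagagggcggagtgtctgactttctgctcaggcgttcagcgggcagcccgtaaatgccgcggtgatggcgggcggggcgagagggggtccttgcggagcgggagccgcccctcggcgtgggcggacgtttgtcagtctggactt

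Auxiliary enzymes that deal with double bonds, and the peroxisomal bifunctional enzyme Ehhadh, had no call among 4 genes. Eci2, an enoyl-CoA isomerase, lay farthest from 0 at 9.28 and 9.22 in arthritic pools 1 and 2, against 8.89 and 8.90 in nonarthritic pools 1 and 2. The pools of each group lay close together and the groups did not overlap (log2 fold change 0.36 ± 0.15 SE, adjusted p = 0.17). The mitochondrial isomerase Eci1 was at -0.29, the reductase Decr1 at 0.07 and Ehhadh at -0.12. Decr1 and Ehhadh overlapped between groups.

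The 3 electron transfer genes, which pass electrons from the dehydrogenases to ubiquinone, were not called. Etfa, the alpha subunit of the electron transfer flavoprotein, read 9.66 and 9.89 in arthritic pools 1 and 2, against 10.23 and 10.40 in nonarthritic pools 1 and 2. It lay lower in both arthritic pools (log2 fold change -0.54 ± 0.17 SE, adjusted p = 0.0692). Over the alternatives the adjusted p ran from 0.0423, with an intensity trend and robust prior, to 0.316. Etfb, the beta subunit, was at 0.19 and the oxidoreductase Etfdh at -0.31.

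Among the regulators, Ppargc1a had the largest change of any measured member. This gene encodes PGC-1 alpha, a coactivator of mitochondrial and oxidative genes in muscle, brown fat and liver. It read 6.83 and 6.30 in arthritic pools 1 and 2, against 8.13 and 8.21 in nonarthritic pools 1 and 2. Its groups lay far apart, and it was at least 2.44-fold lower in arthritic synovium (adjusted p = 0.00187, log2 fold change -1.61 ± 0.20 SE). The fold is a lower bound, because the arthritic signal was not shown to be above background: its mean lay under 6.86, the 95th percentile of olfactory receptor genes averaged over the arthritic arrays. For the bound, each arthritic array counts at that percentile of its own where the gene read lower. The call held without arthritic pool 1 (adjusted p = 0.0354) and not without arthritic pool 2 (0.0676), nonarthritic pool 1 (0.0517) or nonarthritic pool 2 (0.0887).

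The other regulators were not called. Ppara, the fatty acid receptor of the PPAR family, read 6.77 and 6.75 in arthritic pools 1 and 2, against 6.99 and 7.02 in nonarthritic pools 1 and 2 (-0.25 ± 0.15 SE, adjusted p = 0.344). Both groups of Ppara lay in the range of olfactory receptor genes. Ppargc1b, the related coactivator PGC-1 beta, was at -0.27.

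Of the genes that accompany fatty acid use, Pdk4 fell. Pdk4 encodes the kinase that shuts pyruvate dehydrogenase when fat is burned, and it is a known PPAR target. It read 8.29 and 7.77 in arthritic pools 1 and 2, against 8.78 and 9.51 in nonarthritic pools 1 and 2. The groups did not overlap, though the pools within each group stood well apart (log2 fold change -1.12 ± 0.27 SE, adjusted p = 0.0291). The adjusted p was 0.0504 with quantile normalization again, and 0.0594 to 0.294 with 1 pool left out.

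The remaining genes of this group were not called. Ucp3, an uncoupling protein homologue of muscle and brown fat, lay lower in both arthritic pools (-0.56 ± 0.17 SE, adjusted p = 0.068), with an arthritic mean also in the range of olfactory receptor genes. Over the alternatives its adjusted p ran from 0.0483, with dim genes left out, to 0.324. Acot2, a mitochondrial acyl-CoA thioesterase, overlapped between groups, at 9.46 and 8.39 in arthritic pools 1 and 2 and 9.52 and 9.28 in nonarthritic pools 1 and 2. It was the 1 member whose arthritic pools differed by more than 1 log2 unit, and a close copy of the gene, Acot1, may share its probes.

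Some members that read lower in arthritic synovium had the array order of the muscle markers. The mean signal of the 25 muscle markers was 8.35 and 7.96 in arthritic pools 1 and 2, against 10.53 and 10.86 in nonarthritic pools 1 and 2. The log2 of their summed linear signal was 12.90 to 13.32 in arthritic pools, against 15.83 to 16.22 in nonarthritic pools. Read from the highest array to the lowest, 19 of the 25 ran nonarthritic pool 2, nonarthritic pool 1, arthritic pool 1, arthritic pool 2. The same order held for 3 adipocyte and 2 macrophage markers, for 5 members, Crat, Hadh, Ppara, Ppargc1a and Pdk4, and for 6.42% of all genes. It requires both arthritic pools to lie below both nonarthritic pools. Of the 13 members that lay so, 5 had the order, beside 1425 of the 5800 genes that lay so. Arthritic means of 4 muscle and 3 adipocyte markers lay in the range of olfactory receptor genes. Muscle markers called lower numbered 20, 11, 21 and 15 without arthritic pools 1 and 2 and nonarthritic pools 1 and 2 in turn. The part of muscle content in the fall of Ppargc1a, Acadm and Pdk4 was not tested.

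Adipocyte markers had a mean signal of 8.38 and 8.14 in arthritic pools 1 and 2, against 10.38 and 10.33 in nonarthritic pools 1 and 2. The log2 of their summed signal was 12.75 to 13.39 in arthritic pools, against 15.30 in both nonarthritic pools. Their median of -2.46 was -2.26 with dim arthritic genes at their bound. Without the pools in the same turn, 10, 5, 9 and 8 adipocyte markers were called lower. Their part in the members' changes was not tested.

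Neutrophil markers moved the other way, with 9 of 11 measured called higher and 0 lower, among them S100a8 (3.68), Cxcr2 (3.63) and Mmp8 (3.29, or at least 6.17-fold). Nonarthritic signals of Mmp8 and of 3 other neutrophil markers lay in the range of olfactory receptor genes, and the list's median of 3.01 was 2.46 with the called ones among them at their bound. Their mean signal was 10.02 and 10.32 in arthritic pools 1 and 2, against 7.86 and 7.34 in nonarthritic pools 1 and 2. The log2 of their summed signal was 13.92 to 14.19 in arthritic pools, against 11.33 to 11.69 in nonarthritic pools. The order arthritic pool 2, arthritic pool 1, nonarthritic pool 1, nonarthritic pool 2, from high to low, held for 7 of these 11 markers. It also held for 6 of 14 macrophage and monocyte, 4 of 12 synovial fibroblast and 1 of 10 endothelial markers, for 4 members, Acsl4, Acsl5, Acads and Etfb, and for 10.6% of all genes. Of the 11 members with both arthritic pools above both nonarthritic pools, 4 had this order, beside 2340 of 6703 such genes. Of the 6 called members, Ppargc1a and Pdk4 had the muscle marker order, Acads this one, and Acadm, Cpt1a and Slc25a20 neither. Gaps between the pools of a group that set such an order were as small as 0.01 log2 units. Without the pools in the same turn, 7, 3, 9 and 6 neutrophil markers were called higher. The part of neutrophil content in the rises was not tested.

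Markers of other cells of the joint lining were also read, beside 8.72% higher and 6.62% lower among all genes. Of 14 macrophage and monocyte markers, 5 were called higher, among them Mpeg1 (1.91), Cd14 (0.85) and Ccr2 (0.70), and 1 lower, Vsig4 (-2.07) of resident macrophages. Their median was 0.09, with 7 log2 fold changes above 0 and 7 below. Of 12 synovial fibroblast markers 7 were called higher, led by Cdh11 (1.70), Vcam1 (1.45) and Pdpn (1.19), and Htra4 was lower (-1.89). Of 10 endothelial markers Tie1 (0.82) and Kdr (0.73) were called higher and 0 lower. Without the pools in turn, the rising counts were 1, 0, 1 and 1 for macrophages, 1, 0, 3 and 1 for fibroblasts and 0, 0, 0 and 0 for endothelium.

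Genes that supply fatty acids to the cell moved in both directions. The shares among all genes were 8.72% higher and 6.62% lower. Of 22 genes for uptake, release, binding and further activation, 3 rose (13.6%) and 7 fell (31.8%), with a median of -0.12. This list also holds acyl-CoA synthetases, of which the acetyl-CoA synthetase Acss1 fell (-0.81). Lpl, the lipase that frees fatty acids from blood lipoproteins, read 10.61 and 9.98 in arthritic pools 1 and 2, against 12.04 and 12.19 in nonarthritic pools 1 and 2 (log2 fold change -1.82, adjusted p = 0.0016). The call of Lpl held without arthritic pool 1 and not without any other pool (largest adjusted p 0.0891). Fabp4, the fatty acid binding protein of adipocytes and some macrophages and vessels, fell (-1.76), as did Pnpla2, the lipase that opens triglyceride stores (-1.73). Fabp5, the binding protein of skin and macrophages, read 10.56 and 10.96 in arthritic pools 1 and 2, against 8.23 and 7.13 in nonarthritic pools 1 and 2 (log2 fold change 3.08 ± 0.33 SE, adjusted p = 0.00091). Its log2 fold change ran from 2.53 to 3.63 with 1 pool left out, and its call held without either nonarthritic pool but not without either arthritic pool (largest adjusted p 0.0947). Further probe sets of Fabp5 gave log2 fold changes of 1.775 to 3.515. In nonarthritic pool 2 Fabp5 lay under 7.36, the 95th percentile of olfactory receptor genes on that array, which limits what the size of its rise can show. The fatty acid transport proteins Slc27a4 (1.27) and Slc27a3 (1.08) also rose. Fabp4 and the lipase Lipe stand in the adipocyte list as well.

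**Figure D3:**
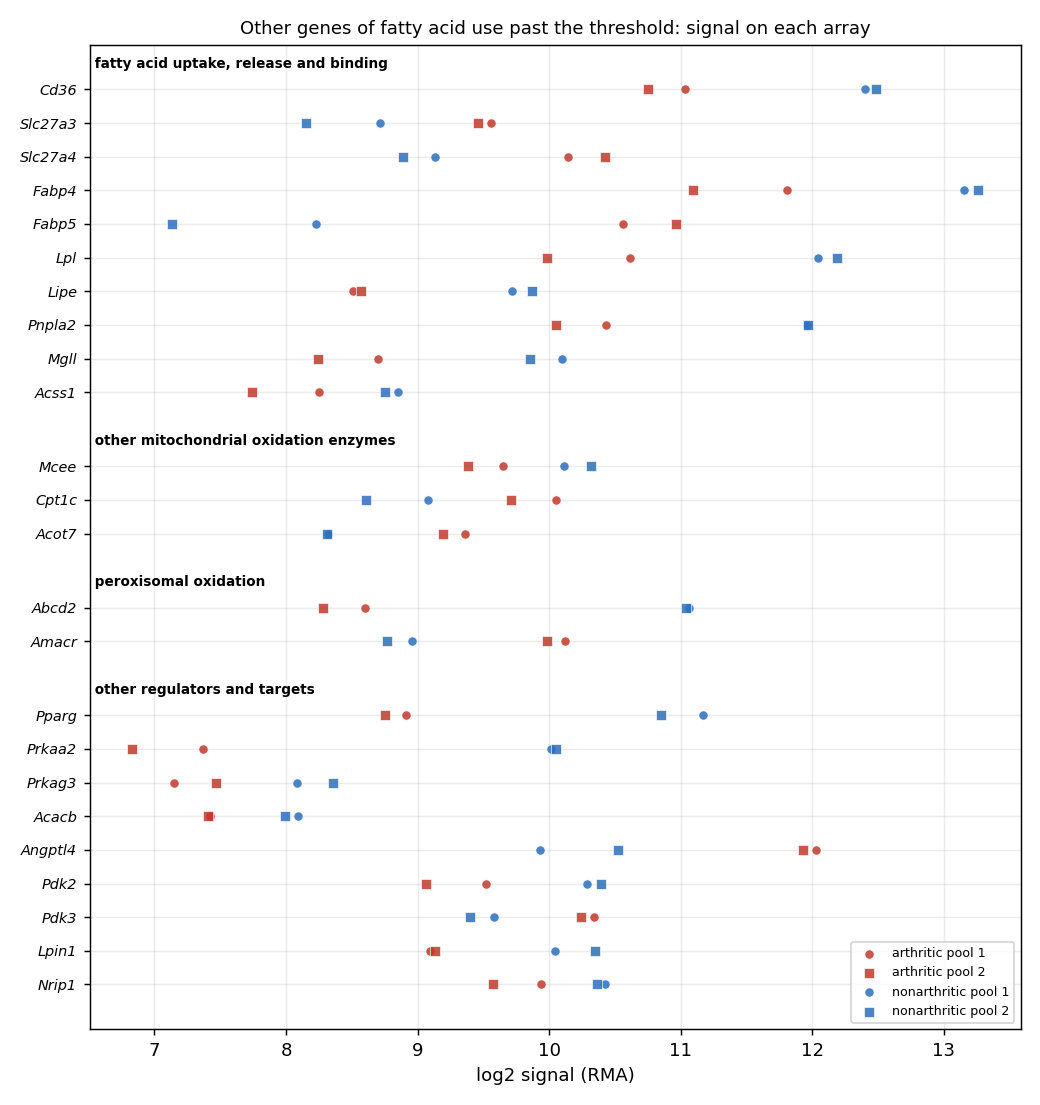
Log2 signal (horizontal axis) of the 24 other genes of fatty acid use that were called, 1 row per gene, grouped by list. Red points are the 2 arthritic pools and blue points the 2 nonarthritic pools; 8 genes such as Fabp5 and Angptl4 lie higher and 16 such as Lpl, Abcd2 and Prkaa2 lower in both arthritic pools.

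Genes listed under other oxidation routes were mostly not called, beside 8.72% higher and 6.62% lower among all genes. A further list of 21 genes was drawn up for mitochondrial oxidation, but a place in it does not show that a product works in mitochondria. In it Cpt1c, the brain-type relative of Cpt1a (1.04), and the thioesterase Acot7 (0.96) rose and Mcee, of odd-chain breakdown, fell (-0.70). Of 16 measured peroxisomal genes, the racemase Amacr rose (1.19) and Abcd2, a transporter of very-long-chain acyl-CoA, fell. Abcd2 read 8.60 and 8.28 in arthritic pools 1 and 2, against 11.06 and 11.04 in nonarthritic pools 1 and 2 (log2 fold change -2.61, adjusted p = 0.00016). Its call held with any 1 pool left out, with adjusted p-values of 0.0206 to 0.0445. Of 3 measured ketone body genes 0 were called in limma, with 0 at an unadjusted p under 0.05.

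Further regulators fell more often than they rose. Of 21, 7 fell and 2 rose, beside 6.62% lower and 8.72% higher among all genes. Prkaa2, the AMPK catalytic subunit prominent in muscle, read 7.37 and 6.83 in arthritic pools 1 and 2, against 10.01 and 10.05 in nonarthritic pools 1 and 2 (log2 fold change -2.93, adjusted p = 0.000178). In arthritic pool 2 Prkaa2 lay under 6.94, the 95th percentile of olfactory receptor genes on that array, which limits what the size of its fall can show. Pparg, the PPAR of fat and of some macrophages, fell (-2.18), as did Lpin1, a phosphatidate phosphatase and coactivator (-1.09). Angptl4, a secreted inhibitor of Lpl and a PPAR and hypoxia target, read 12.03 and 11.93 in arthritic pools, against 9.93 and 10.52 in nonarthritic pools (log2 fold change 1.76, adjusted p = 0.00156). Prkaa2 kept its call with any 1 pool left out (adjusted p 0.024 to 0.0445), while Angptl4 lost it without either arthritic pool (largest adjusted p 0.0914). The kinase Pdk3 rose (0.80).

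Among all genes tested, 8.72% were called higher and 6.62% lower. Over all 82 measured genes of these pathway lists, 8 rose (9.76%) and 16 fell (19.5%), with a median of -0.02. Without arthritic pools 1 and 2 and nonarthritic pools 1 and 2 in turn, 0, 0, 5 and 2 of them rose and 8, 2, 7 and 3 fell.

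Fatty acid synthesis genes had 0 rises and 4 falls (36.4%, beside 6.62% of all genes) among 11 measured, with a median of -0.49. Among the falls were the desaturase Scd1 (-2.10), the carbohydrate sensor Mlxipl (-1.49, or at least 2.46-fold lower, its arthritic signal lying in the range of olfactory receptor genes) and Thrsp (-1.41). Of 17 citric acid cycle genes Idh2 rose (0.60), and Idh3a (-1.13) and Dld (-0.66) fell, with a median of -0.15. Of 15 glycolysis genes 4 rose, led by the hexokinase Hk3 (1.33), the phosphofructokinase Pfkl (1.29) and the lactate exporter Slc16a3 (1.10), and the muscle phosphofructokinase Pfkm fell (-1.84). Their median was 0.08, and 26.7% were called higher, beside 8.72% of all genes. Without the pools in the same turn, 0, 0, 0 and 0 citric acid cycle genes rose and 0, 0, 1 and 0 fell, 2, 0, 1 and 0 synthesis genes fell and 1, 0, 1 and 0 glycolysis genes rose. Differences between the lists were not tested.

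**Figure D4:**
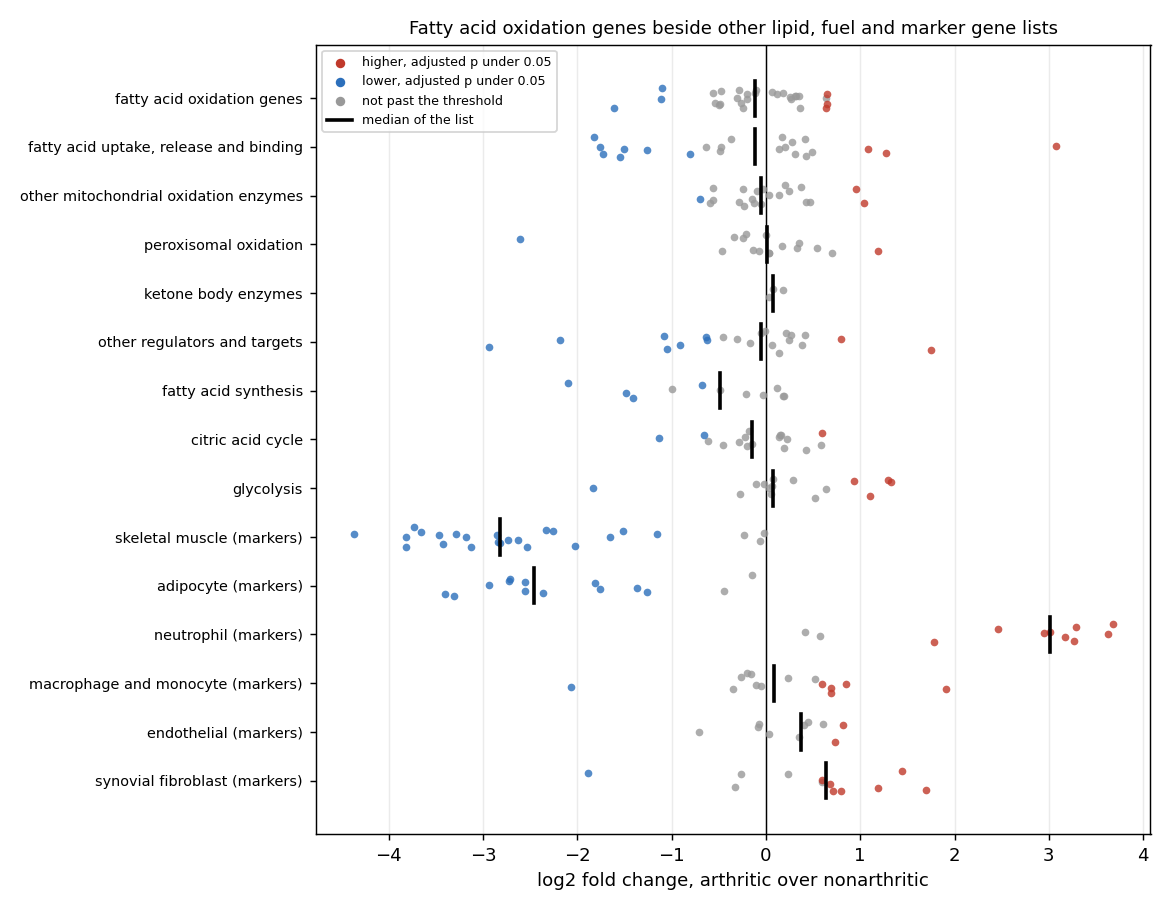
Log2 fold change (horizontal axis) of every measured gene in the fatty acid oxidation list, the other lipid and fuel lists and the cell type marker lists, 1 point per gene, with a black bar at each list's median. The oxidation genes lie between -1.61 and 0.65 around a median of -0.12, while the medians of the muscle and adipocyte markers lie at -2.82 and -2.46 and that of the neutrophil markers at 3.01.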

How the data were processed

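Synovial RNA of 4 pools was measured on Affymetrix MoGene 2.0 ST arrays. The authors deposited 1 log2 signal per probe set and array. Per the submitters' processing notes, the tools were RMA, Affymetrix Power Tools and Affymetrix Expression Console, with versions not given in the sources used here. That values are log2 follows from their range, 2.89 to 14.27, and whether they were centred is not stated. Array medians were 6.96 and 7.05 for arthritic pools 1 and 2 and 7.05 and 7.15 for nonarthritic pools 1 and 2. The number of arrays limits the precision.

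Of 41345 probe sets, 23521 had 1 gene symbol in the platform table, 1814 several and 16010 none; 23328 matched RefSeq gene numbers (GRCm38.p6). Each gene was read from its single-symbol probe set with the highest mean, which left 22180 genes. Groups were compared with limma 3.58.1 in R 4.3.3 (lmFit and eBayes, 2-sided, no block, Benjamini-Hochberg over all genes; 2 residual and 5.98 prior degrees of freedom). Positive fold changes are higher in arthritic synovium. The fit was tested on simulated data. Pools count as biological replicates per the series description, so p-values rest on the spread between pools, not mice. Each gene's variance is drawn toward that of all genes, so its own pools set only a part of it. No detection calls were used.

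Members and lists were chosen with earlier results of these data known. Values per array are given for called members and for the member farthest from 0 in each role; in other lists the called genes with the 3 largest rises and 3 largest falls are named. Other genes given per array (Prg4, Slc22a5, Hadha, Hadhb, Ppara and Acot2), the list genes among those named that are given per array (Lpl, Fabp5, Abcd2, Prkaa2 and Angptl4), and Acsl6 and Acss1 were chosen after their values were seen. Alternatives were array centring, quantile normalization, a dim filter (mean log2 under 6), the mean of probe sets, an intensity trend with a robust prior, the replicate block and leaving out each pool.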

Additional observations from a re-analysis of the deposited data

How the results depend on the processing

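The 6 called members kept their direction under every alternative. Among uncalled members, Slc22a5 (0.28), Ehhadh (0.04) and Acot2 (0.06) turned positive without arthritic pool 2 and Decr1 (-0.005) negative without nonarthritic pool 2. With array medians centred, the share of calls over all genes that were lower was 32.9%, against 43.2% as deposited, and the members' median was -0.025 beside 0.1 for all genes. The median turned to 0.06 without arthritic pool 2 and lay at -0.195 to 0.06 with 1 pool left out. The intensity trend with a robust prior called 6 members lower. The pool numbers are not shown to pair the samples: deviations of equal numbers correlated at 0.176 over genes, with 2 pairs. With the replicate block, 1216 genes were called higher, 0 members were called higher, and 4 members lost their call (adjusted p 0.0526 for Cpt1a, 0.0595 for Slc25a20, 0.0892 for Acads and 0.117 for Pdk4). With 1 pool left out, 47 to 637 genes were called higher and 105 to 584 lower, 0 to 0 members higher and 0 to 2 lower, and 0 to 5 other pathway genes higher and 2 to 8 lower. A left-out pool leaves 1 array in its group, assumed to vary like the other group, and 1 residual degree of freedom fewer. Signals near those of olfactory receptor genes, as in Ppara, Ppargc1a, Ucp3, Hadhb and Prkaa2, limit what a fall can show, and in Fabp5 what a rise can show.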

Other observations

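Values of forms of 5 enzyme or carrier families are given here, chosen after the values were seen. Among the kinases that shut pyruvate dehydrogenase, Pdk2 (log2 fold change -1.05) and Pdk4 (-1.12) fell, Pdk3 rose (0.80) and Pdk1 was at 0.38 without a call. Of the phosphofructokinases, Pfkm, the muscle form, fell (-1.84), Pfkl rose (1.29) and Pfkp was at -0.27 without a call. Of the fatty acid binding proteins, Fabp4 fell (-1.76), Fabp5 rose (3.08) and Fabp3, prominent in heart and muscle, was at 0.18 without a call. Of the AMPK catalytic subunits, Prkaa2 fell (-2.93) and Prkaa1, found in most cells, was at -0.31 without a call. Of the hexokinases, Hk3 rose (1.33), and Hk1 (0.08) and Hk2 (0.04) were not called. Differences between forms were not tested, and signals of different probe sets cannot be set against each other.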
